A study of Mus musculus with 4 samples.

Results

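The neighbourhood of oocytes was examined in sections of mouse ovary profiled by Visium spatial transcriptomics, in which RNA released from a frozen tissue section is caught on a grid of barcoded spots. Each spot collects RNA from several cells, so that no value belongs to a single cell. Seed spots held at least 1000 unique molecules (UMIs) and at least 15 summed UMIs per 10000 of 10 oocyte genes (Zp1, Zp2, Zp3, Gdf9, Bmp15, Ooep, Padi6, Khdc3, Zar1 and Dppa3). The ring was made of the spots, not seeds themselves, that were one of the 6 nearest neighbours of a seed on the hexagonal grid, and far spots lay at least 4 steps from every seed. Of 4191 spots over tissue, 121 were seeds in 46 groups of adjoining seeds, 324 were ring spots (7.73% of all spots), 376 lay at the second step, 381 at the third, and 2989 were far. Seed and ring spots were thus selected on the measured counts of these 10 genes, whose values below are descriptions and were given no test.

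The animals were outbred CD-1 females, young at 3 to 4 months or naturally aged to 15 to 16 months, with 4 animals per age and no treatment. Each of 4 capture areas carried 1 young and 1 aged ovary section, and sections are numbered by area. Ring spots numbered 87, 72, 11 and 70 in young sections 1 to 4 and 6, 20, 46 and 12 in aged sections 1 to 4. Ring and far were compared within the 7 sections with 10 or more ring spots, 4 young and 3 aged, which held 318 ring and 2716 far spots, and aged section 1 was left out.

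Within a follicle the oocyte is enclosed by granulosa cells, which are joined to it by gap junctions and respond to the growth factors GDF9 and BMP15 that it secretes. Granulosa cells divide as the follicle grows and send hedgehog ligands to the theca cells outside the follicle's basement membrane, where the receptor Ptch1 and the transcription factor Gli1 are targets of the pathway. After ovulation the follicle becomes a corpus luteum, which takes up and makes cholesterol and turns it into progesterone. The comparison asks which of these programmes lie beside oocyte transcripts.

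Promoter windows are shown for 5 genes described below, chosen because they were higher in the ring than in far spots and hold a motif known from their gene class. The windows are the 250 bases before the RefSeq start in build GRCm38.p6, written 5′ to 3′ on the gene's strand, with the motif in capitals. Amhr2, Slc18a2 and Ihh, granulosa genes, hold CAAGGNCA, starting at −232, −239 and −100 from the start. This is a loose form of the binding motif of the NR5A nuclear receptors, in which N is any letter. The cell cycle genes Cdk1 and Mki67 hold TTTGAA, the core of the cell cycle homology region, each 2 times.
Amhr2, chr15:102445117-102445366, plus strand: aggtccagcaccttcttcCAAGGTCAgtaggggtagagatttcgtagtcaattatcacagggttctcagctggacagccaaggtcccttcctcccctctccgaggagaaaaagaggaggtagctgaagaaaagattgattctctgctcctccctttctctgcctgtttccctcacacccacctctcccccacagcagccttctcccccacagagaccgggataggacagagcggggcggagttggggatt
Slc18a2, chr19:59260628-59260877, plus strand: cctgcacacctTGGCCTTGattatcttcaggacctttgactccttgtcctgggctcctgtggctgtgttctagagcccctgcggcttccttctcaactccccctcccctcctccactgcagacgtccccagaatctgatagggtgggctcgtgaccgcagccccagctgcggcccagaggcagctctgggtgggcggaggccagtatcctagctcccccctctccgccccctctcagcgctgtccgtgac
Ihh, chr1:74951673-74951922, minus strand: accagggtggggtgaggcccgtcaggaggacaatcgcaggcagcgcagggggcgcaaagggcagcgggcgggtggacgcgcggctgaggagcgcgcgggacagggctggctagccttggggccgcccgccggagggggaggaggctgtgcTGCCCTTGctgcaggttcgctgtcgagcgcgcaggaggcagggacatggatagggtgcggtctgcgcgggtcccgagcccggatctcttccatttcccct
Cdk1, chr10:69352913-69353162, minus strand: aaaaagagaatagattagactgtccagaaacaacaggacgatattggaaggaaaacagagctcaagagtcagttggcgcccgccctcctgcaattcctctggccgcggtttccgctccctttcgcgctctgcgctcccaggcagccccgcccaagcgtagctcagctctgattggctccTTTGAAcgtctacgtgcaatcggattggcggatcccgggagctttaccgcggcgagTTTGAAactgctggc
Mki67, chr7:135716380-135716629, minus strand: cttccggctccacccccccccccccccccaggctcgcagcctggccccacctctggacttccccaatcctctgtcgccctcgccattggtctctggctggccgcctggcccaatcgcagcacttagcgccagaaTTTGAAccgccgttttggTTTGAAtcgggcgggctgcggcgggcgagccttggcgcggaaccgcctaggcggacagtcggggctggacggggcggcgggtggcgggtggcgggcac
Both motifs were searched on both strands, so that the NR5A motif reads CAAGGTCA in Amhr2, TGGCCTTG in Slc18a2 and TGCCCTTG in Ihh. Of the 17 granulosa genes that were higher in the ring, 13 had a promoter entry and 3 of these (23.1%) held CAAGGNCA, against 6.33% of 27025 genes with an entry. Of the 18 such cell cycle genes, 15 had an entry and 5 (33.3%) held TTTGAA, against 18.3% of all genes. A match describes letters in the window and not binding. In the mm10 annotation, Amhr2 lies at chr15:102445367-102454633, Slc18a2 at chr19:59260896-59296012, Ihh at chr1:74945315-74951672, Cdk1 at chr10:69335146-69352938 and Mki67 at chr7:135689784-135716361, and all 5 are protein-coding.

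Sections held 2777948 to 21619232 UMIs. Summed per section, ring spots of the 7 sections gave 199502 to 1951683 UMIs and far spots 1646050 to 14041546, so that the ring is the less precise class. A low level in the smallest rings rests on few molecules, and its direction against other spots is then uncertain. Median UMIs per spot were 15428 ± 7128 in the ring and 17648 ± 6586 in far spots (SD, n = 7 sections), with the ring higher in 2 of 7 sections (exact sign-flip test, two-sided, adjusted p = 0.516, over 3 measures). Median genes per spot (4856.5 against 5182, exact test, adjusted p = 0.539) and the mitochondrial share of UMIs (1.61% against 1.42%, exact test, adjusted p = 0.703) did not pass the test either, where the smallest p that 7 sections allow is 0.0156. Area 3 ran against the other areas: its young section had 2 seeds and its aged section 27, with 17.9% of its spots in the ring. Ages follow the side of the area given in the labels. A reversed orientation of that image and a true difference between its sections cannot be told apart, so calls and counts were also computed without area 3. Of 2204 distinct barcodes, 1358 occurred in more than 1 area, as the areas use one set of array positions. Nothing says whether further sections of an animal exist, and each section stands for 1 animal.

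**Figure D1:**
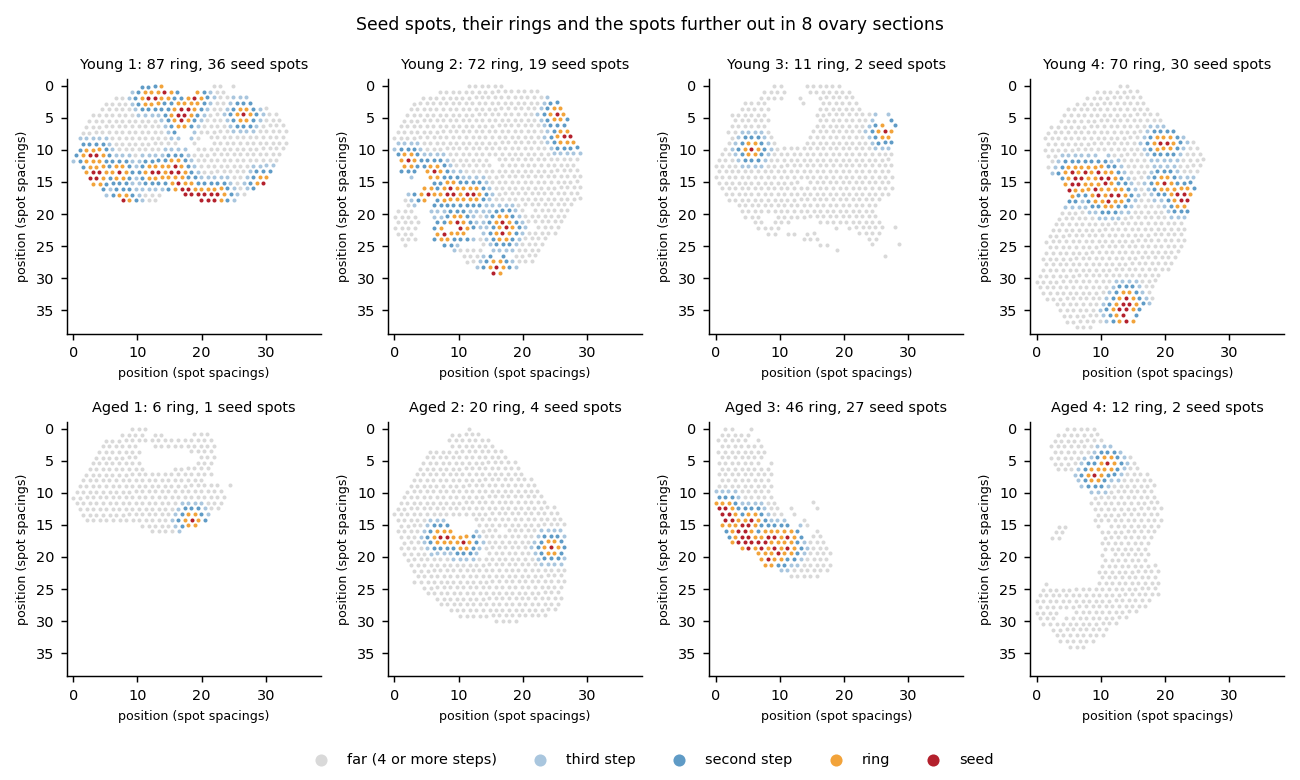
Spots of the 8 sections by position, in spot spacings, coloured as seed, ring, second step, the third step or far. Seeds form several separate groups in young sections 1, 2 and 4, lie along 1 side of aged section 3, and number 1 to 4 in young section 3 and aged sections 1, 2 and 4.

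The ring held oocyte transcripts, at a lower level than the seeds. The 10 seed genes together made up a median of 33.3 UMIs per 10000 in seed spots (19.6 to 50.5 over the 7 sections), 4.61 in the ring (1.06 to 7.13), 1.84 at the second step, 0.98 at the third and 0.48 in far spots. The step from seed to ring is fixed by the threshold, since the weakest seed had 15.05 per 10000 and the strongest other spot of at least 1000 UMIs 14.91, with 18 spots between 13 and 15 and 16 between 15 and 17. Zp3, a coat protein of the oocyte's zona pellucida, averaged 557 CPM (counts scaled to 1000000 UMIs of a class in a section) in seeds, 54.6 in the ring, 26.3 at the second step and 7.36 in far spots. Gdf9, the growth factor, followed with 364, 49.3, 23.0 and 6.79 CPM. Of the ring spots, 222 touched 1 seed and 26 touched seeds of more than 1 group.

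Oocyte genes that the rule did not use had the same order, and since they come from the same cell their levels, here and further below, are descriptions that the choice of seeds bears on. H1foo, the oocyte linker histone, averaged 308 CPM in seeds, 59.0 ± 54.4 in the ring (SD, n = 7) and 6.90 ± 9.16 in far spots. Its ring value ranged from 0 in young section 3 to 169 in aged section 3. Nlrp14, an oocyte NLR protein, averaged 306 CPM in seeds, 29.2 in the ring and 3.88 in far spots. Uchl1, a ubiquitin hydrolase abundant in oocytes, averaged 668, 153 and 74.0 CPM in the same order. Of the 29 genes of this list, 9 passed the filter on low counts in the ring and far sums. Not all followed: of these 9, 8 had a positive log2 fold change, ring over far, and Gja4 a negative one (−0.48). Tle6 and Kit stood at 0.31 and 0.44.

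Against far spots, genes of granulosa cells and of the cell cycle were higher in the ring and genes of the corpus luteum and of cholesterol metabolism were lower. Summed counts per section and class were tested with edgeR's quasi-likelihood test, with the section as a block and Benjamini-Hochberg adjustment. Of 10955 genes tested, 503 (4.59%) were called higher in the ring and 544 (4.97%) lower at an adjusted p under 0.05, and the median log2 fold change of all of them was 0.01. Log2 fold changes are ring over far and carry the standard error (SE) of the fit. The count of calls moved with single sections: leaving out young section 2 gave 208 and 183, leaving out area 3 gave 245 and 393, and leaving out aged section 3 gave 308 and 402. Without young section 1 there were 357 lower genes and without aged section 2 there were 349. Of 114 called genes that the lists or the rule for named genes hold, 74 kept the call without area 3 and 40 lost it. Among those described below, Fshr, Inhbb, Nap1l5, Fst, Mki67, Mcm2, Bambi, Smad1, Fbln1, Lama1, Lhcgr, Hsd3b1, Hsd17b7, Apoa4 and Tex15 lost it, at adjusted p of 0.0513 (Mki67 and Mcm2) to 0.188 (Bambi). No gene that was called changed direction between called results in any alternative. More cells of a type in a spot and more RNA per cell cannot be told apart in any of these values.

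Granulosa genes were higher beside the seeds. Of the 24 granulosa genes 22 could be tested, and all 22 had positive fold changes (median log2 fold change 1.41). Of these 17 were called higher, against 4.59% of all genes. Inha, the inhibin alpha subunit, had a lowest, median and highest CPM of 2487, 2822 and 13467 over the 7 rings and 702, 1126 and 2476 over the 7 far classes. Its ring exceeded far in every section, the classes did not overlap although the lowest ring and the highest far value nearly met, and the highest ring was that of aged section 4 (log2 fold change 1.52 ± 0.29 SE, adjusted p = 0.00592). Serpine2, a protease inhibitor, stood at 361, 676 and 2145 CPM in the ring and at 119, 189 and 439 in far spots. It too was higher in 7 of 7 sections (log2 fold change 1.73 ± 0.31, adjusted p = 0.00455).

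Slc18a2, the vesicular monoamine transporter, had 19.5, 255 and 877 CPM as its lowest, median and highest ring and 14.4, 36.8 and 230 in far spots. Aged section 4 was the only section with less in the ring than in far spots (log2 fold change 1.93 ± 0.34, adjusted p = 0.00407). Nap1l5, a nucleosome assembly protein relative, ran from 45.1 through 192 to 1570 CPM in the ring and from 28.3 through 42.0 to 132 far away (2.10 ± 0.43, adjusted p = 0.00826). Amhr2, the receptor for anti-Müllerian hormone, ranged over 102 to 241 CPM in the ring and 65.2 to 175 in far spots (0.88 ± 0.16, adjusted p = 0.00517). Young section 3 alone had no more in the ring than in far spots, at 102 and 103 CPM. Fshr, the receptor for follicle-stimulating hormone, had medians of 25.6 and 7.98 CPM (1.53 ± 0.35, adjusted p = 0.0148).

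Inhbb, the inhibin beta B subunit, had 2165 CPM in the ring of aged section 4 and 1584 in that of young section 3, but 30.9 to 197 in the other 5, against 16.6 to 117 in far spots (2.29 ± 0.65, adjusted p = 0.0377). The 5 tested granulosa genes that were not called were Inhba, Foxl2, Kitl, Wt1 and Gatm. Kitl, the ligand by which granulosa cells signal to the oocyte's Kit receptor, had median levels of 34.7 CPM in the ring and 24.1 in far spots (0.24 ± 0.21). Foxl2, a transcription factor of granulosa identity, had 90.9 and 66.9 CPM (0.31 ± 0.11, adjusted p = 0.104). Amh and Cyp19a1 did not pass the filter, and Amh averaged 6.35 CPM in the ring and 1.52 in far spots. Without area 3 the count of granulosa genes called higher was 9, against 245 of all 12050 genes tested.

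**Figure D2:**
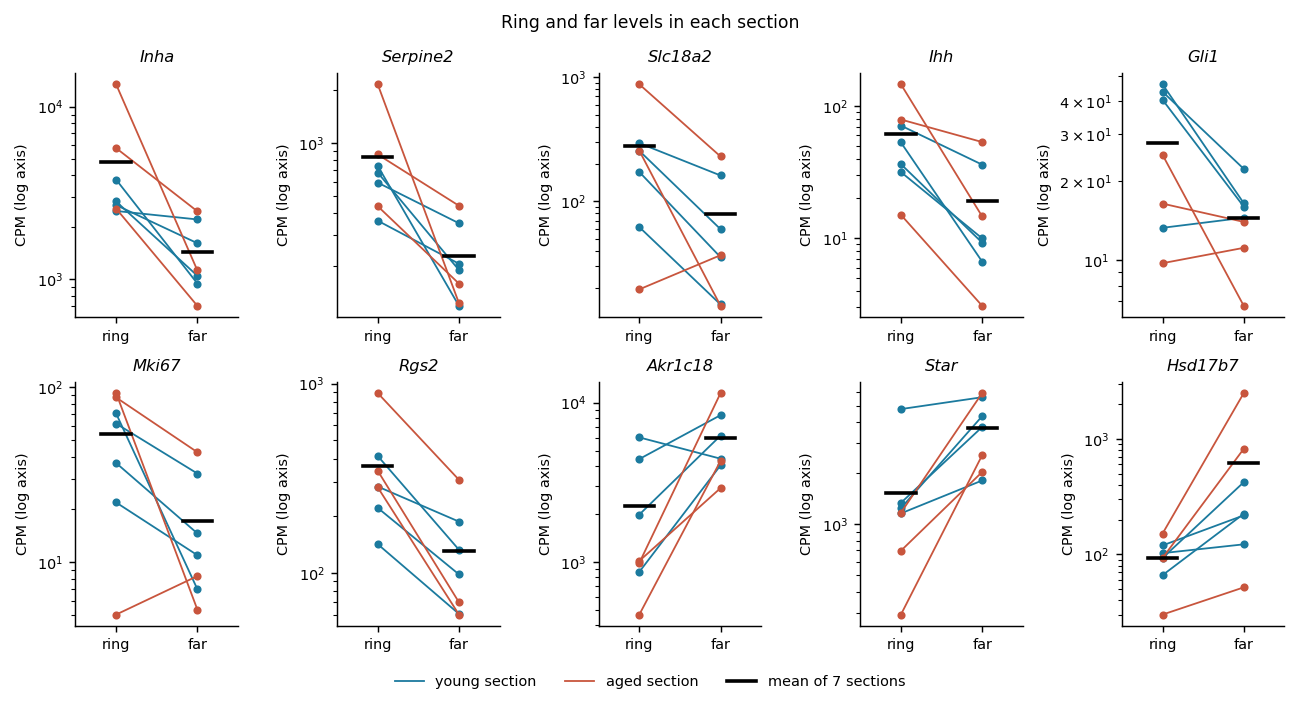
Level in CPM (log axis) of 10 genes in ring and far spots of 7 sections, with a line for each section and a bar for the mean. Inha, Serpine2, Ihh and Rgs2 lie higher in the ring in every section and Star and Hsd17b7 lower in every section, while Slc18a2, Gli1, Mki67 and Akr1c18 have 1 or 2 sections that go the other way.

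Cell cycle genes were also higher in the ring. They summed to a median of 18.0 UMIs per 10000 in seeds and 12.4 in the ring, and young section 3 alone had less in seeds than in the ring. The choice of seeds may bear on these levels, and the share that comes from the oocyte was not tested. Of 28 cell cycle genes 26 were tested, with a median log2 fold change of 1.05. Of these 18 were called higher and 1, Cdkn1a, lower, against 4.59% and 4.97% of all genes. In every section 15 were higher, against 5.17% of all genes. Mki67, the proliferation antigen, had 5.01, 62.0 and 92.6 CPM as lowest, median and highest ring and 5.36, 11.0 and 42.5 in far spots (log2 fold change 1.52 ± 0.32, adjusted p = 0.00925). Aged section 2, the lowest ring, was the only one below its own far spots. That ring held 199502 UMIs, so that its value rests on few molecules. Cdk1, the mitotic kinase, had 48.8, 83.0 and 134 CPM against 10.7, 25.9 and 70.9 and was higher in every section (1.35 ± 0.25, adjusted p = 0.00517). Mcm6, a subunit of the replicative helicase, had 48.7, 71.7 and 158 CPM against 20.1, 31.2 and 75.6 and was likewise higher in all 7 (1.06 ± 0.16, adjusted p = 0.00178). Cdkn1a, the cell cycle inhibitor p21, had 7.53, 13.7 and 31.7 CPM in the ring and 12.1, 25.1 and 89.3 in far spots and was lower in every section but aged section 2 (log2 fold change −1.07 ± 0.22, adjusted p = 0.00863). The group depended on single sections, with 5 genes called higher without area 3 and 11 without aged section 3. All genes called higher were 245 of 12050 and 308 of 12084 in these 2 settings.

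Hedgehog ligands and their targets were both higher in the ring. Of 9 genes 7 were tested and 4 were called higher (median log2 fold change 0.68), against 4.59% of all genes. The ligands Ihh and Dhh, which granulosa cells make, had 15.0, 53.1 and 146 CPM against 3.08, 9.98 and 53.5, and 17.4, 24.6 and 63.4 CPM against 3.21, 6.80 and 20.0 in far spots. Both were higher in 7 of 7 sections (Ihh 1.73 ± 0.26, adjusted p = 0.00178, and Dhh 1.69 ± 0.35, adjusted p = 0.00867). Gli1 had a median of 25.1 CPM in the ring and 14.5 in far spots, with young section 3 and aged section 4 lower in the ring (1.04 ± 0.20, adjusted p = 0.00627). Ptch1 followed with 59.1 and 29.9 CPM and 5 of 7 sections higher (0.68 ± 0.17, adjusted p = 0.0205). Smo, the signal transducer, was higher in 7 of 7 sections at 74.1 against 58.2 CPM without being called (0.30 ± 0.11, adjusted p = 0.0944), and Gli2 was not called (−0.04, adjusted p = 0.976). Without young section 2 there were 2 calls in this list, and without area 3 there were 5, against 208 of 10824 and 245 of 12050 genes called higher.

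Of the receptors and relays of GDF9 and BMP15, most were not called. Among 24 genes 21 were tested, with a median log2 fold change of 0.04. Of the 21, 3 were called higher and 1 lower, against 4.59% and 4.97% of all genes. Bmpr1b, a type I receptor, had 15.0, 51.2 and 171 CPM in the ring and 8.89, 16.3 and 45.6 in far spots and was higher in every section (1.38 ± 0.28, adjusted p = 0.00788). Fst, the activin-binding follistatin, which is also in the granulosa list, had medians of 127 and 50.5 CPM (1.56 ± 0.31, adjusted p = 0.00629, and 0.0606 without area 3). Bambi, a decoy receptor, rose by less (0.45 ± 0.13, adjusted p = 0.0473), and Smad1, a signal relay, fell from a median of 32.3 to 24.6 CPM (−0.72 ± 0.20, adjusted p = 0.0345). Bambi and Smad1 lost the call in 15 and 13 alternatives. Bmpr2, the type II receptor of both ligands, had medians of 127 and 99.3 CPM (0.51 ± 0.19, adjusted p = 0.102). Id3, a target of SMAD signalling, had 756 and 690 CPM (0.14 ± 0.22, adjusted p = 0.755).

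Genes listed as cumulus or oocyte-induced were not higher in the ring as a group, as far as they could be tested. Of 21 genes 15 were tested, and Ptx3, Tnfaip6, Has2, Ptgs2 and Amh were not among them. Bmp15, an oocyte seed gene that this list also holds, was kept out of the tests. None of the 15 was called higher and 3 were called lower, against 4.59% and 4.97% of all genes. The median was 0.03, and the 7 negative fold changes were those of glycolysis and cholesterol genes. The largest fold change was that of Grem1, which was not called (1.58 ± 0.52, adjusted p = 0.0706). In this edgeR test Npr2, the receptor that keeps the oocyte in meiotic arrest, had medians of 61.0 and 44.5 CPM (0.86 ± 0.28, adjusted p = 0.0660), and Slc38a3, an amino acid transporter, 63.5 and 26.0 CPM (0.74 ± 0.24, adjusted p = 0.0655). Ldha, a lactate dehydrogenase, had 391 and 271 CPM (0.34 ± 0.16, adjusted p = 0.208). The 3 lower genes, Sqle, Cyp51 and Fdps, are enzymes of cholesterol synthesis and are also in that list, with log2 fold changes of −0.95, −1.29 and −1.11. Of 18 glycolysis genes only Ldhb was called, against 4.59% of all genes called higher. It had medians of 551 CPM in the ring and 319 in far spots (0.69 ± 0.17, adjusted p = 0.0224). With DESeq2 in place of edgeR, 1 gene of the cumulus list was called higher.

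**Figure D3:**
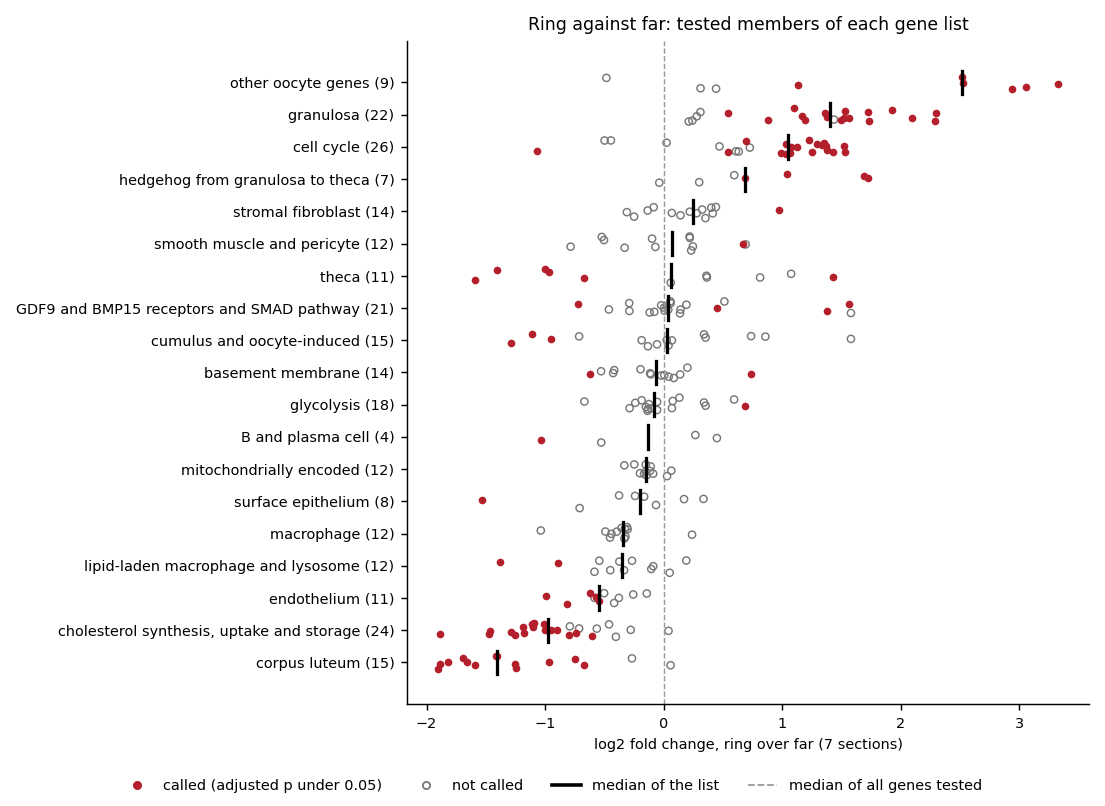
Log2 fold change, ring over far, of each tested member of the gene lists with at least 4 tested members (7 sections). Filled points passed an adjusted p of 0.05 and the bar is the list's median. The oocyte points are a description, as seeds were selected on other oocyte transcripts. Oocyte, granulosa, cell cycle and hedgehog lists lie above the dashed median of all genes, at medians of 2.52, 1.41, 1.05 and 0.68, and cholesterol and corpus luteum lists below it at −0.98 and −1.41.

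Luteal and steroidogenic genes were lower beside the seeds. Of 16 corpus luteum genes 15 were tested and 13 were called lower (median log2 fold change −1.41), against 4.97% of all genes. Akr1c18, which breaks down progesterone in the regressing corpus luteum, had 466, 1013 and 6048 CPM in the ring and 2906, 4445 and 11488 in far spots. Young section 3 had more in the ring than in far spots, and the other 6 sections less (−1.82 ± 0.39, adjusted p = 0.0105). Star, the cholesterol carrier of steroidogenesis, had 293, 1168 and 4774 CPM in the ring and 1810, 3743 and 5935 in far spots, with the highest ring again in young section 3 and less in the ring in all 7 (−1.59 ± 0.29, adjusted p = 0.00477). Cyp11a1, which makes the first steroid from cholesterol, had medians of 3399 and 9023 CPM and was lower in 7 of 7 sections (−1.41 ± 0.25, adjusted p = 0.00455). Sfrp4, a secreted Wnt antagonist, reached 9936 CPM in the ring of young section 3 and at most 2790 in the other rings, against 2425 to 8172 in far spots (−1.90 ± 0.44, adjusted p = 0.0153).

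Of the 24 genes of cholesterol synthesis, uptake and storage, all were tested, with a median of −0.98. Of these 17 were called lower, against 4.97% of all genes, and 16 were lower in every section, against 5.15%. Hsd17b7, an enzyme of cholesterol and oestrogen synthesis, had 30.1, 92.9 and 151 CPM in the ring and 51.8, 224 and 2491 in far spots, the last in aged section 4 (−1.89 ± 0.36, adjusted p = 0.00590, and 0.0584 without area 3). Hmgcs1, an early enzyme of the pathway, had medians of 155 and 428 CPM (−1.47 ± 0.27, adjusted p = 0.00493). Scarb1, the receptor for high-density lipoprotein, had 502 and 1310 CPM and was lower in 7 of 7 sections (−1.25 ± 0.23, adjusted p = 0.00493). Scarb1 and Hsd17b7 count in both lists. Without young section 2 the count of lower cholesterol genes was 11, against 183 of all 10824 genes tested.

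Theca genes split. All 11 were tested, with 5 called lower and 1 higher, against 4.97% and 4.59% of all genes. The 5 lower genes (Fdx1, Lhcgr, Cyp11a1, Star and Hsd3b1) are steroidogenic genes that luteal cells express as well. Enpep, a membrane aminopeptidase, was the 1 gene of the list called higher, with 8.85, 35.4 and 57.4 CPM in the ring and 5.58, 14.2 and 21.3 in far spots (1.43 ± 0.16, adjusted p = 0.000416). It was higher in 7 of 7 sections and was called in each of the 24 alternatives that gave it an adjusted p. Cyp17a1, the androgen-making enzyme that marks theca, ranged over 15.0 to 931 CPM in the ring and 10.6 to 459 in far spots and was not called (1.07 ± 0.36, adjusted p = 0.0719).

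Vessel markers were lower in the ring. All 11 endothelial genes tested had negative fold changes (median −0.54) and 5 of them were called lower, against 4.97% of all genes. Among the 5 was Pecam1, at medians of 31.8 and 56.0 CPM (−0.82 ± 0.13, adjusted p = 0.00297). Calls in that list numbered 1 without young section 2, 2 without young section 1 or area 3, and 3 without aged section 2 or 3. Over all genes, 183, 357, 393, 349 and 402 were called lower in these settings, in the same order. Both tested haemoglobin genes, Hba-a1 and Hbb-bs, were called lower, and these have near-identical copies that share reads. Hba-a1 had a median of 13.0 CPM in the ring and 41.2 in far spots and was lower in 7 of 7 sections (−1.94 ± 0.29, adjusted p = 0.00177). Of 12 macrophage genes none was called by edgeR or DESeq2, and 11 had negative fold changes. Of 14 tested stromal fibroblast genes Fbln1 alone was called higher (0.97 ± 0.26, adjusted p = 0.0297, and 0.141 without area 3), against 4.59% of all genes. Of 14 tested basement membrane genes 1 was called higher and 1 lower, against 4.59% and 4.97% of all genes, with a list median of −0.06. Lama1, a laminin chain, was the higher one, with medians of 233 and 126 CPM (0.74 ± 0.17, adjusted p = 0.0153, and 0.0771 without area 3). Sparc was lower at 1260 and 1624 CPM (−0.62 ± 0.16, adjusted p = 0.0269). Counts of cells of these types and RNA per cell were not tested as parts of the granulosa and luteal results.

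Among called genes of at least 20 CPM on average with 1 direction in every section, the 12 highest and the 12 lowest were picked out. Highest was Elobl, an elongin B-like gene, at 8.85, 39.0 and 87.4 CPM in the ring and 2.26, 3.65 and 12.8 in far spots (log2 fold change 2.72 ± 0.27). It averaged 310 CPM in the seeds themselves, so that its level, too, is a description. Serpina3a, a serpin, had medians of 122 and 15.5 CPM (2.57 ± 0.47, adjusted p = 0.00493), and Gm2044 273 and 32.7 CPM (2.21 ± 0.29, adjusted p = 0.00113). Syt7, a calcium sensor of vesicle release, had 27.8, 39.8 and 107 CPM in the ring and 4.10, 8.90 and 29.8 in far spots (2.07 ± 0.32, adjusted p = 0.00258). Also in this group were Nap1l5, Tex15, Slc6a15 and Slc26a7 (membrane carriers of amino acids and anions), Wfdc10, Apoa4, Sel1l3 and Serpine2, at 1.73 to 2.10.

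Lowest was D630023F18Rik, at 5.01, 13.3 and 27.2 CPM in the ring and 21.7, 74.5 and 169 in far spots (−2.22 ± 0.22, adjusted p = 0.000182). Spp1, the matrix protein osteopontin, had 60.1, 88.5 and 209 CPM in the ring and 187, 267 and 2770 in far spots (−1.95 ± 0.43, adjusted p = 0.0115). The far value of aged section 4 was the highest of these. Pik3c2g, a lipid kinase, had ranges that did not overlap, 15.0 to 73.3 CPM in the ring and 95.8 to 407 in far spots (−1.92 ± 0.27, adjusted p = 0.00150). The remaining genes, Rab27a, Saa2, Ssu2, Hba-a1, Gm47938, Tnfrsf9, Hsd17b7, Cst8 and Nmrk1, lay between −2.03 and −1.69.

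The groups were also followed outward step by step. Granulosa genes summed to a median of 91.3 UMIs per 10000 in seeds, 67.9 in the ring, 59.1 at the second step, 43.0 at the third and 33.7 in far spots. Hedgehog genes summed to 3.62, 2.88, 2.77, 2.00 and 1.40 in the same order, and cell cycle genes to 18.0, 12.4, 8.97, 6.80 and 5.39. Corpus luteum genes ran the other way, at 76.2, 132, 199, 312 and 327, and cholesterol genes at 19.6, 24.9, 32.6, 40.5 and 51.0. In all 7 sections the ring was above far for granulosa, hedgehog and cell cycle genes and below it for corpus luteum and cholesterol genes. Single sections departed from the medians: in aged section 4 granulosa genes summed to 253 in seeds, 272 in the ring, 288 and 298 at the next steps and 33.9 in far spots.

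**Figure D4:**
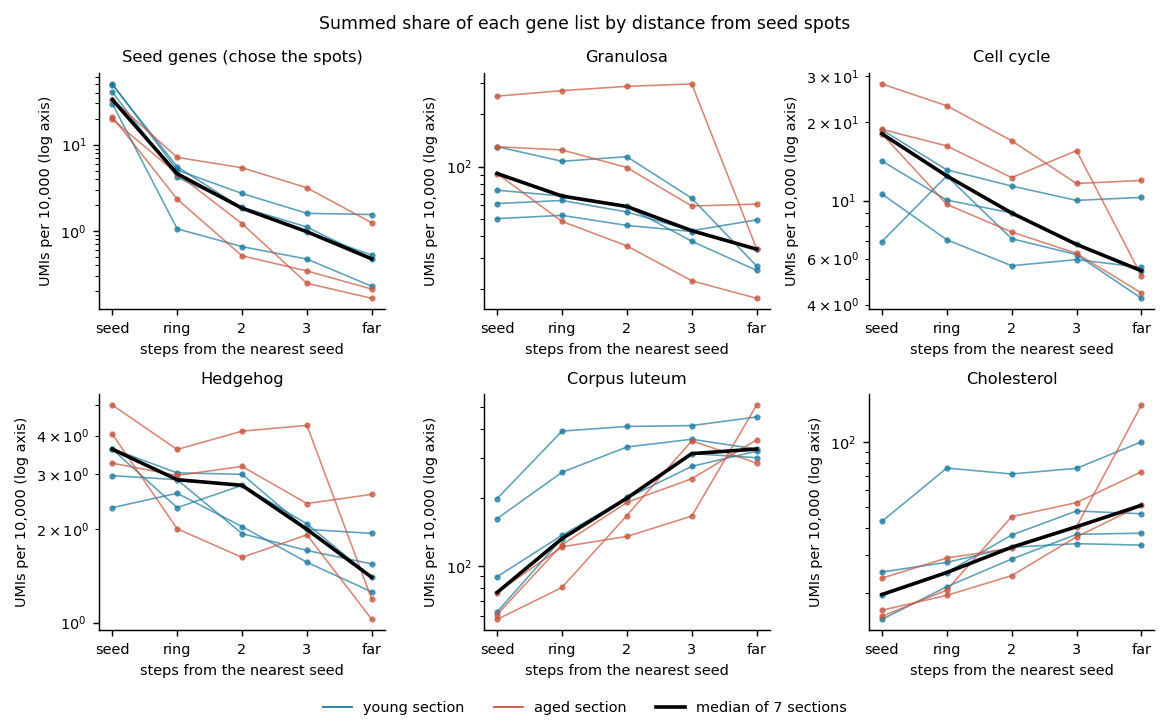
Summed UMIs per 10000 (log axis) of 6 gene lists in seed spots, the ring, the second and the third steps and far spots, with a thin line for each of 7 sections and a thick line for their median. The granulosa median falls from 91.3 in seeds to 33.7 in far spots and the corpus luteum median climbs from 76.2 to 327.

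Between the ring and the second step, where spots touch, fewer genes differed. In the same edgeR test on 7 sections, 6791 genes were tested, 42 (0.618%) were called higher in the ring and 123 (1.81%) lower. Of 20 tested granulosa genes 3 were called higher (Amhr2, Slc18a2 and Kctd14), with a median log2 fold change over the list of 0.12 beside 0.01 over all genes. Slc18a2 averaged 276 CPM in the ring and 178 at the second step and was higher in 7 of 7 sections, from 19.5 against 19.0 CPM in aged section 4 to 256 against 63.7 in aged section 2 (0.71 ± 0.12, adjusted p = 0.000432). In aged section 4 the 2 classes held 205094 and 367657 UMIs, so that this pair rests on few molecules and shows no clear direction. Rgs2, a regulator of G-protein signalling, averaged 369 and 227 CPM (0.57 ± 0.09, adjusted p = 0.000420), higher in every section. Inha, at 4794 and 4339 CPM, was not called (0.20 ± 0.08, adjusted p = 0.262), nor was Ihh, at 61.8 and 62.3 CPM (0.09 ± 0.13, adjusted p = 0.861). Of 17 cell cycle genes tested 3 were called higher (Birc5, Mcm2 and Mcm6), and of 4 hedgehog genes none.

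Among called genes of at least 20 CPM that were higher than at the second step in every section, the 8 with the largest fold changes also held Syt7, Uchl1, Apoa1, Apoa4, Psip1 and Mcm6, at 0.45 to 0.64. Of 4 tested genes of the oocyte list 2 were called higher, Uchl1 and H1foo. These calls are not independent of the choice of seeds. All 13 corpus luteum genes tested had negative fold changes at this distance too, with a median of −0.64. Of these 11 were called lower, against 1.81% of all genes. Hsd17b7 averaged 93.5 CPM in the ring and 147 at the second step and was lower in 7 of 7 sections (−0.85 ± 0.12, adjusted p = 0.000145). Cp, the copper protein ceruloplasmin, averaged 26.1 and 57.5 CPM (−0.95 ± 0.15, adjusted p = 0.000421), and Des, the muscle filament desmin, 32.5 and 66.4 (−0.77 ± 0.15, adjusted p = 0.00243). Des averaged 29.6 CPM in seeds, 45.9 at the third step and 35.8 in far spots, so that of the 5 classes the second step had its highest mean. With spots of at least 10 seed UMIs per 10000 taken as seeds, the value of Des was 0.08. Igkc, an immunoglobulin light chain that can share reads with related genes, was called higher (1.30 ± 0.18, adjusted p = 0.000145), with 1333 CPM in the ring of aged section 2 and 4.88 to 318 elsewhere. When only spots under 3 seed UMIs per 10000 were used its value was −0.83. With those spots no gene was called higher and 11 lower (522 at an unadjusted p under 0.05), and DESeq2 on the main classes called 12 higher and 48 lower. Leaving out young section 1, 2 or 4 gave 18, 22 and 13 higher and 58, 55 and 62 lower.

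A last comparison asked whether granulosa-rich spots beside oocyte transcripts differ from granulosa-rich spots away from them. Ring and far spots were both restricted to the top 20% of spots by 8 granulosa genes (Inha, Inhba, Inhbb, Foxl2, Fshr, Amh, Nap1l5 and Esr2), which left 11 to 40 ring and 28 to 113 far spots in 5 sections (young 1, 2 and 4, aged 3 and 4). The classes were not matched in these 8 genes: Inha averaged 6728 CPM in the ring and 4946 in far spots. Aged section 4 had 13840 and 4480 CPM, while young section 1 and aged section 3 had less in the ring than in far spots. Of 8731 genes tested by edgeR, 6 (0.0687%) were called higher in the ring and 51 (0.584%) lower. None of 15 granulosa, 23 cell cycle or 7 hedgehog genes tested was called, with medians of 0.38, 0.12 and 0.33 beside 0.01 over all genes. At an unadjusted p under 0.05 there were 621 genes in all (7.11%). Slc18a2, for instance, averaged 401 ± 340 CPM in the ring and 349 ± 214 in far spots (SD, n = 5 sections, 0.15 ± 0.25, adjusted p = 0.954), and Mki67 75.2 and 59.9 CPM (0.30 ± 0.23, adjusted p = 0.861). A call missed in 5 sections does not show that these spots are alike.

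The 6 genes called higher were Nlrp14, E330017A01Rik, H1foo, Elobl, Uchl1 and Enpep, and the mean of the first 5 in seed spots was 4.35 to 10.5 times that in the ring, so that these 5 are not independent of the choice of seeds. H1foo had ring values of 79.8, 58.5, 15.2, 170 and 65.4 CPM in young sections 1, 2 and 4 and aged sections 3 and 4, and far values of 38.9, 0, 1.83, 59.3 and 2.43. Each ring exceeded its own far spots, while the far value of aged section 3 lay within the range of the rings. Enpep had 58.2, 51.0, 58.5, 58.6 and 20.1 CPM in the ring in the same order and 19.4, 28.1, 23.3, 39.5 and 23.1 in far spots, lower in the ring in aged section 4 alone (1.04 ± 0.22, adjusted p = 0.0291). Over the 7 sections Enpep averaged 23.2 CPM in seeds, 34.0 in the ring, 25.0 and 22.7 at the next steps and 12.6 in far spots, so that of the 5 classes the ring had its highest mean.

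Of 14 corpus luteum genes tested in these granulosa-rich spots, 8 were called lower in the ring (median −0.90), against 0.584% of all genes. Each spot holds several cells, and whether luteal cells lay in these far spots was not tested. Star had 272, 723, 483, 607 and 292 CPM in the ring and 1081, 1002, 864, 1114 and 810 in far spots, with no overlap (−1.07 ± 0.19, adjusted p = 0.00648). Akr1c18 averaged 810 ± 408 and 1860.5 ± 851 CPM (−1.20 ± 0.20, adjusted p = 0.00558). Gpx3, a secreted glutathione peroxidase, had 283 to 625 CPM in the ring and 781 to 1802 in far spots, again with no overlap (−1.42 ± 0.17, adjusted p = 0.000220). Lipg, a lipase of the vessel wall, averaged 26.9 and 95.1 CPM (−1.45 ± 0.26, adjusted p = 0.00680), and Wnt10b, a Wnt ligand, 9.85 and 42.5 (−1.63 ± 0.35, adjusted p = 0.0329). The count depended on where the limits were drawn, with 3 genes lower at the top 10% of spots and 88 at the top 30%. It also depended on single sections, with 2 higher and 17 lower without young section 4, 13 and 28 without young section 1, 20 lower without aged section 3 and 32 lower without aged section 4.

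**Figure D5:**
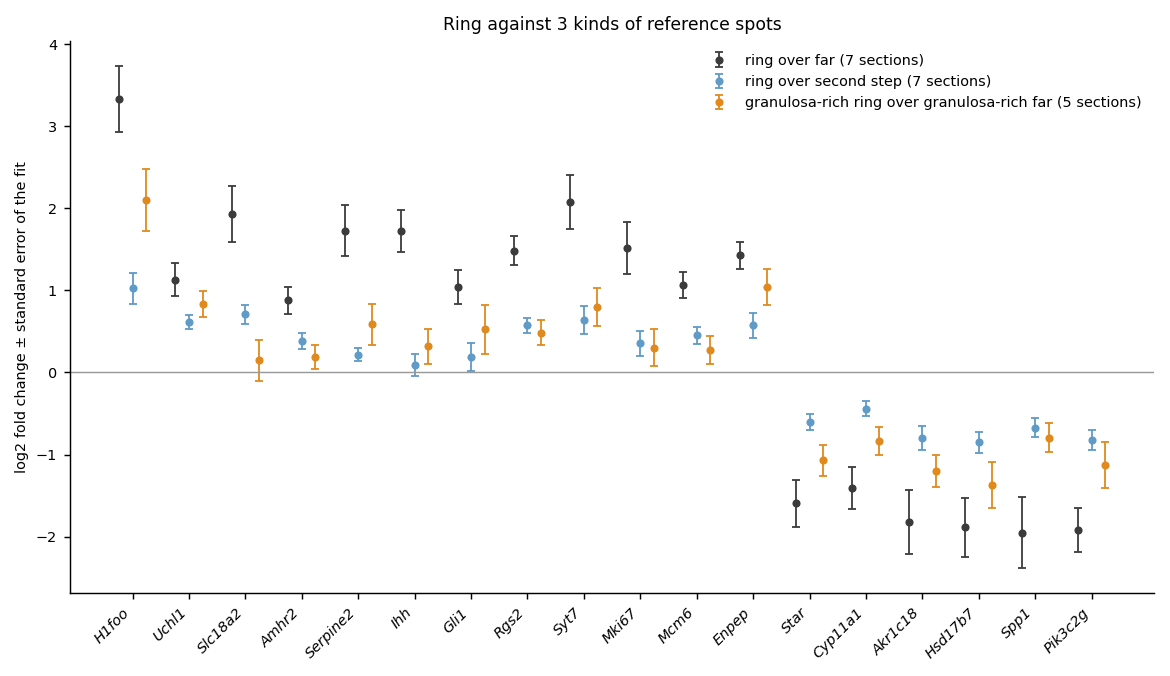
Log2 fold change with the standard error of the fit for 18 genes, for ring over far, ring over second step and granulosa-rich ring over granulosa-rich far. Ihh lies at 1.73, 0.09 and 0.32 in the 3 comparisons and Akr1c18 at −1.82, −0.80 and −1.20; the comparisons share ring spots and are set side by side only.

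Age was examined as the difference between aged and young sections in the ring minus far difference. The share of spots in the ring was 9.36 ± 5.86% in young and 6.46 ± 7.64% in aged sections (SD, n = 4 each, exact permutation test, two-sided, p = 0.629, smallest possible 0.0286). Without area 3 it was 11.8 ± 3.96% in young and 2.65 ± 0.565% in aged sections (n = 3 each), where the ages did not overlap and the exact p of 0.1 is the smallest that 3 against 3 allows. Young was higher in 3 of 4 areas, and an exact test paired within areas gave p = 0.75 (smallest possible 0.125). Of 10955 genes, 1 (0.00913%) was called by edgeR's interaction test, and 1083 (9.89%) had an unadjusted p under 0.05. The called gene, Adh7, an alcohol dehydrogenase that oxidises retinol, had 250.6 CPM in the ring and 73.1 in far spots of aged section 2, 43.9 and 21.3 in aged section 4, and 2.73 and 3.04 in aged section 3. In young sections 1 to 4 the ring had 5.79, 4.10, 13.3 and 27.6 CPM and far spots 14.7, 11.1, 16.0 and 60.8, lower in the ring in all 4. Most of these ring values, and that of aged section 3, rest on few molecules. The aged minus young difference was 2.64 ± 0.35 (log2, adjusted p = 0.0203), and 2 of 3 aged sections had more in the ring. The adjusted p was 0.217 without aged section 2, 0.122 without young section 1, 0.0944 without young section 2 and 0.186 without young section 4, and 0.0215 without area 3. DESeq2 called 5 genes higher and 24 lower and gave no adjusted p for Adh7.

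The gene groups had the same sign of median in both ages for granulosa (1.09 in young and 1.49 in aged sections, log2 ring over far with 1 CPM added), cell cycle (0.86 and 1.49), hedgehog (0.76 and 0.60), corpus luteum (−0.85 and −2.24) and cholesterol genes (−0.49 and −1.87). In cholesterol genes the aged sections stood at −1.79, −1.17 and −2.37 and the young at −0.60, −0.77, −0.30 and −0.16, so that the ages as labelled did not overlap. With the sections of area 3 exchanged, −1.17 would be a young and −0.30 an aged value, and the ages would overlap. The age tests of the gene groups rest on the labelled sides too. Of the 24 cholesterol genes 20 had an unadjusted p under 0.05 for the age difference, against 9.89% of all genes, and none passed the adjustment. Lss, an enzyme of sterol synthesis, had −0.52 in young and −2.54 in aged sections on average (fitted difference −1.99 ± 0.33, adjusted p = 0.0859). For corpus luteum genes, 10 of 15 had an unadjusted p under 0.05 and none passed.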

How the data were processed

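Spatial transcriptomes of 8 mouse ovary sections in 4 capture areas were used. The authors deposited unnormalized counts of UMIs for each gene in each spot, made with Space Ranger 1.2.1 and build mm10 per the submitters' processing notes. The deposited position lists, other values in pixels and array rows, placed 4191 spots, and 72 positions over tissue had no column in the count tables and were not used. Sections of an area were separated at the gap between them, and age was taken from the side the labels name. The seed rule, members and gene lists were chosen with earlier results of these data known.

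Counts of 32285 genes were summed per section and class of spot and tested with edgeR 4.0.16 (TMM scaling, filterByExpr, quasi-likelihood F test, the section as a block) in R 4.3.3. Benjamini-Hochberg adjustment ran over all genes tested, with a threshold of 0.05, and seed genes were kept out of the tests. The standard error printed with a log2 fold change is the fold change divided by the square root of its F statistic. CPM are counts scaled to 1000000 UMIs of the class in a section, without TMM scaling. The granulosa-rich comparison used spots with at least 30.9 UMIs per 10000 of its 8 genes, which were likewise not tested in it. The section pairs ring and other spots because both come from 1 animal, and across genes the deviations of ring and far spots correlated at 0.0759 to 0.430, those of ring and second step at 0.304 to 0.647 and those of granulosa-rich spots at 0.188 to 0.553. Named genes were the 12 called genes with the largest and the 12 with the smallest fold change that had 1 direction in every section and at least 20 CPM (8 and 8 in the other comparisons), the 4 most abundant genes of each list, and any member of the granulosa, cumulus, SMAD, hedgehog and theca lists. Other genes were chosen after their values were seen. Spot measures and ring shares were compared by exact permutation. Alternatives were RLE scaling, library size alone, no filter, DESeq2 1.42.0, no block, single sections left out, other seed, distance, depth and granulosa limits, and, chosen after seeing the data, area 3 left out. The tests were tried on simulated data. Doublet calling does not apply to spots, and no cell-type makeup was estimated.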

Additional observations from a re-analysis of the deposited data

Results flagged for a closer look

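Aged section 3 had 17.9% of its spots in the ring, while the other 3 aged sections had 2.01% to 3.06%, and its gap to them was large for a group of 4. Of 41 values checked in this way 1 stood apart, and chance alone sets apart about 1 in 20 groups. The section holds 27 seeds in 6 groups. Whether the sides of area 3 were exchanged was not tested.

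The ring minus far difference of Adh7 differed between ages by 2.64 (log2, aged minus young, edgeR interaction test, adjusted p = 0.0203). It was lower in the ring in 4 of 4 young sections and higher in 2 of 3 aged sections. The call was lost without aged section 2 and without young section 1, 2 or 4, and most ring values rest on few molecules.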

How the results depend on the processing

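No gene called in both a main comparison and its alternative changed direction between the calls. For ring against far (503 higher, 544 lower), 1009 genes were lower without the filter on low counts, 63 and 45 were called without the replicate block, 245 were higher without area 3, and leaving out single sections gave 208 to 455 higher and 183 to 574 lower. Seeds of at least 30 per 10000 gave 273 higher and 377 lower, far spots from 6 steps 202 and 160, spots under 3 seed UMIs per 10000 261 and 354, and spots thinned to equal depth 203 and 222. For ring against second step (42 and 123), no filter gave 81 and 207, DESeq2 12 and 48, no replicate block 0 and 0 (67 at an unadjusted p under 0.05), single sections left out 13 to 55 and 55 to 181, the seed limit of 30 91 higher, and spots under 3 seed UMIs 0 and 11. For granulosa-rich spots (6 and 51), no filter gave 44 and 108, DESeq2 18 lower, no replicate block 0 and 0 (264 unadjusted), single sections left out 2 to 13 and 17 to 44, seed limits of 10 and 30 2 and 3 and 12 and 13, spots under 3 seed UMIs 11 and 30, the top 10% 0 and 3, and the top 30% 21 and 88. For the age difference (1 and 0), no filter gave 26 and 107, DESeq2 5 and 24, single sections left out 0 to 3 and 0 to 6, area 3 left out 3 and 7, the seed limit of 10 3 lower, and spots under 3 seed UMIs 4 and 4. The age difference at a seed limit of 30 could not be fitted, as too few aged sections had enough ring spots. The share of calls that were higher was 48.0% with TMM, 55.2% with library size alone, 37.6% without the filter and 58.3% without the block. In the opposite direction from the main value were Igha at −1.66 and Jchain at −2.33 (ring against far, both called there but not in the main comparison) and Igkc at −0.83 (second step) and Uchl1 at −0.26 (granulosa-rich), all with spots under 3 seed UMIs, and Actg2 at 0.37, Des at 0.077 and Hbb-bs at 0.43 (second step) with the seed limit of 10, of which Actg2 and Hbb-bs were called there and not in the main comparison. Apart from the fewer samples or genes that some alternatives have by construction, the cause was not tested. The exact tests of spot measures and ring share kept their side of the threshold in every section left out. With the replicate block of capture areas the ring share differed by −2.89 percentage points (aged minus young), and without area 3 by −9.15, where no p under the threshold was possible; both were chosen after seeing the data. The number of sections, and rings of 11 to 20 spots in young section 3 and aged sections 2 and 4, limit what could be called.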

Other observations

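Aged section 1, with 1 seed and 6 ring spots, entered no main test, and its granulosa genes ran against the other 7 sections. They summed to 16.9 UMIs per 10000 in the ring and 79.2 in far spots. Its macrophage genes summed to 68.6 in the seed, 28.1 in the ring and 13.3 in far spots. Median UMIs per spot were 6664.5 in this ring and 15188 in its far spots. With sections of at least 5 ring spots, which brings this section in, 474 of 10883 genes were called higher and 549 lower by edgeR. Among the higher were 13 granulosa genes.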
